A study of Homo sapiens with 27 samples.

Results

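The genes described here are 36 genes of the G2 phase and of mitosis, followed in MDA-MB-231 cells, a line grown from a human breast cancer, under inhibitors of both enzymes of O-GlcNAc cycling. They were taken by name, with every probe set whose platform annotation names only 1 of them. All 36 were measured, by 59 of 22215 probe sets, among 11963 genes in all. A further probe set names CENPA together with another gene and was left out. The cells received 5SGlcNAc at 50 µM, which inhibits O-GlcNAc transferase (OGT), Thiamet-G at 25 µM, which inhibits O-GlcNAcase (OGA), or DMSO, the vehicle. RNA was taken at 0, 2, 4, 6, 8 and 24 h with 1 array per treatment and time (18 arrays), and at 48 h with 3 arrays per treatment (9 arrays). All groups are the same cell line with no genetic change stated in the labels, and the arrays labelled 0 h carry the names of all 3 treatments. The deposited values are log2 levels made with RMA, on which a difference of 1 is a doubling.

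O-GlcNAc is a single sugar attached to serine and threonine of many nuclear and cytoplasmic proteins. OGT puts it on and OGA takes it off. The transcripts of mitotic genes are low in G1, climb through S phase and G2, and are cleared after division, so that in a growing culture their level follows the share of cells in G2 and mitosis as well as their transcription. In quiescent and early cycling cells the DREAM complex, which contains E2F4 and p107 or p130, holds these genes down, and B-MYB (encoded by MYBL2) and FOXM1 later bind the same MuvB core and activate them. The contact runs through a promoter element called the cell cycle genes homology region (CHR), and the factor NF-Y binds CCAAT boxes nearby. In bulk RNA, fewer cells of a cycle phase and less RNA per cell cannot be told apart.

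The promoters below are those of the 6 genes with the smallest p-values in the 48 h comparisons among members with a window in RefSeq, shown because CHR and CCAAT letters recur in this gene group. Each is the 250 bases before the annotated start, from GRCh38.p14, 5′ to 3′ on the gene's own strand. Capitals mark the CHR letters TTTGAA, the CHR variant TTCGAA and the CCAAT box CCAAT, each searched on both strands, so that TTCAAA and ATTGG are their reverse complements. In HMMR, 2 CCAAT boxes on opposite strands share bases.
KIF20A, chr5:138178862-138179111, plus strand: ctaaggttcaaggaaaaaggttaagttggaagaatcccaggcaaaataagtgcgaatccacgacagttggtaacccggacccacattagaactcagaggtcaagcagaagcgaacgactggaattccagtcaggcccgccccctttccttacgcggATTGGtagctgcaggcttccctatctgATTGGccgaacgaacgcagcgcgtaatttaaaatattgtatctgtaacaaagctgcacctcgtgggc
NDC80, chr18:2571307-2571556, plus strand: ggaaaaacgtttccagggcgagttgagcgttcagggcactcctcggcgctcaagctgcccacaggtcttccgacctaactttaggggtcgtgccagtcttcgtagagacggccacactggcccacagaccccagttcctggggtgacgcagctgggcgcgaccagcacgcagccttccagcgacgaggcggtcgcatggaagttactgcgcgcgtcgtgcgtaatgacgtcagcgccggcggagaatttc
DLGAP5, chr14:55191586-55191835, minus strand: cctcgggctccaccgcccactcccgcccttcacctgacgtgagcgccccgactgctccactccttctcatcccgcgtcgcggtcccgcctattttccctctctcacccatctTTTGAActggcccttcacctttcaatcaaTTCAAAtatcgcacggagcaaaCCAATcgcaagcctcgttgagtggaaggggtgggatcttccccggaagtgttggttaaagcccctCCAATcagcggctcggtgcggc
HMMR, chr5:163460382-163460631, plus strand: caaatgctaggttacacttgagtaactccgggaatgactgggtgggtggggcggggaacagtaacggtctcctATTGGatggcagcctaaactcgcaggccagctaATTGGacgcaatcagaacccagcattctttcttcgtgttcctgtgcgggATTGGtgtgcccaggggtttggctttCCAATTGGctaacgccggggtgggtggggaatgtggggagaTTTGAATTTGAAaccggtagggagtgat
ECT2, chr3:172750476-172750725, plus strand: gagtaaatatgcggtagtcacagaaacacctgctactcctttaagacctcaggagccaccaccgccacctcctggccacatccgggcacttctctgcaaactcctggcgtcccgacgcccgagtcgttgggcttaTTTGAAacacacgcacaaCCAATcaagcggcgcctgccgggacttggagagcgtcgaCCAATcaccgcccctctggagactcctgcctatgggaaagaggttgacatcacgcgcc
TOP2A, chr17:40417897-40418146, minus strand: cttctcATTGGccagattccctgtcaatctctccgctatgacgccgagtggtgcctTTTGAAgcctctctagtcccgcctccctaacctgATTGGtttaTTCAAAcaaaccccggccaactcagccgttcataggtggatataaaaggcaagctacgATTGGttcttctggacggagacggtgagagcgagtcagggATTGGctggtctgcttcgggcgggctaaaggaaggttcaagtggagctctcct

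KIF20A showed 2 CCAAT boxes and no CHR letters in this window, HMMR 5 CCAAT boxes and 2 neighbouring CHR copies, and TOP2A 4 CCAAT boxes and 2 CHR copies. NDC80 had no capitals in the printed stretch because its CHR letters start 3 bases before the start site and run past it. RefSeq windows of 250 bases before to 50 bases after the start were matched by symbol for 30 members, as 37 windows. CHR letters were present in 24 of the 37 windows, against 15.2% of all 35116 windows and 11.8% of the windows of genes on the array. CCAAT boxes were present in 30 of the 37 windows, against 34.6% of all windows. Both together stood in 21 of 37, against 5.9% of all. Of 62 windows of a list of other mitotic genes, 34 held CHR letters, 37 a CCAAT box and 25 both. Of 52 windows of a list of G1/S and DNA replication genes, 2 held CHR letters and 30 held a CCAAT box. The variant TTCGAA was in 2 of the 37 windows, against 1.45% of all. These are letter matches in a window, not binding sites.

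Markers of the line and of other cell types were read at 48 h. VIM, CD44, AXL, CAV1, ANXA1 and ZEB1, which mark its mesenchymal type, lay between the 86.7 and 99.9 percentile of all genes at 48 h. The luminal receptor gene PGR lay at the 3.7 and PTPRC, a leukocyte gene, at the 4.61 percentile. The other haematopoietic markers lay higher, from the 13 (LYZ) to the 43.8 percentile (HBB). Fibroblast markers ranged from the 4.81 (FAP) to the 60.7 percentile (COL1A1). Luminal markers were mixed: ESR1 lay at the 35.9 and GATA3 at the 65 percentile, while the keratins KRT19, KRT8 and KRT18 lay at the 89.2, 94.8 and 98.7 percentile. Of 8 luminal markers KRT19 passed with 5SGlcNAc at 48 h, with a difference from DMSO of -0.42 (limma adjusted p = 0.0018), and its part in the results below was not tested. The 48 h arrays and the 0 to 24 h arrays were processed separately, with array medians of 7.68 to 7.75 and of 7.42 to 7.52, so levels were not set across them. Within these sets the lowest correlation between arrays was 0.9967 and 0.9942. For ACTB, the 3′ signal minus the 5′ signal, which reflects RNA quality, was 0.15 to 0.39 at 48 h. It was 1.64 on the DMSO array and 1.24 on the Thiamet-G array of 4 h, against 0.42 to 0.95 on the other arrays of 0 to 24 h. The labels leave unsaid whether the 3 arrays per treatment stem from separate cultures, and the p-values therefore reflect the spread among these arrays alone, which could be technical.

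All 36 genes were expressed above the median of all genes at 48 h, from 9.21 for PLK1, a kinase of mitotic entry and spindle assembly, to 13.7 for PTTG1, which encodes securin, the inhibitor of separase. These are array levels, which depend on the probes, so genes are not ranked against each other.

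After 48 h of 5SGlcNAc, 9 of the 36 genes were lower than with DMSO and none was higher, at an adjusted p under 0.05 (limma, Benjamini-Hochberg over all probe sets). Among all genes, 6.1% were lower and 2.17% higher in the same fit. The 9 were KIF20A, TOP2A, NUSAP1, NDC80, DLGAP5, CDC25C, CENPE, FOXM1 and TPX2, with fold differences of 1.13 to 1.21. The sign was negative for 35 of the 36 genes, against 46.4% of all genes, and CDC20 was the exception with a difference of 0.02. The median difference of the 36 was -0.16 log2, against 0.01 over all genes. Members are bright, and of the 4862 genes at least as bright as the dimmest of them, 8.72% were lower, with a median of -0.01.

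KIF20A encodes a kinesin of the central spindle that carries the chromosomal passenger complex. It read 11.64, 11.59 and 11.60 with 5SGlcNAc, against 11.85, 11.91 and 11.86 with DMSO. All inhibitor arrays were below all vehicle arrays, and the difference was -0.26 ± 0.04 (SE, n = 3 each, limma adjusted p = 0.00764). TOP2A, the topoisomerase that untangles chromosomes, read 12.79, 12.78 and 12.72 with 5SGlcNAc, against 13.07, 13.01 and 12.93 with DMSO. The groups did not overlap, and the limma difference was -0.24 ± 0.05 (SE, adjusted p = 0.0206). NUSAP1, which binds spindle microtubules, read 11.91, 11.95 and 12.02 with 5SGlcNAc, against 12.19, 12.31 and 12.17 with DMSO. Here too all inhibitor arrays were below all vehicle arrays, with a difference of -0.26 ± 0.06 (SE, limma adjusted p = 0.0228).

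NDC80, a kinetochore protein that grips microtubule ends, read 11.17 on each of the 3 arrays of 5SGlcNAc, against 11.36, 11.43 and 11.42 with DMSO. All inhibitor arrays were lower, with a difference of -0.23 ± 0.05 (SE, limma adjusted p = 0.0305). DLGAP5, which stabilises kinetochore fibres, read 11.70, 11.75 and 11.71 with 5SGlcNAc, against 11.91, 12.01 and 11.90 with DMSO. The arrays separated, with a difference of -0.22 ± 0.05 (SE, limma adjusted p = 0.0338). CDC25C, the phosphatase that activates CDK1, read 9.40, 9.33 and 9.47 with 5SGlcNAc, against 9.58, 9.66 and 9.77 with DMSO. It had the most negative difference of the 36, -0.27 ± 0.06 (SE, limma adjusted p = 0.0343), again without overlap.

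By role, genes that passed the test were spread over all groups but the checkpoint genes. Among 9 kinases, cyclins and regulators of mitotic entry, CDC25C and the transcription factor FOXM1 fell, with a median of -0.18 for the group. CDK1, the kinase that drives entry, differed by -0.22 (adjusted p = 0.0635), and its partner CCNB2 by -0.22 (adjusted p = 0.0662), both by limma. Among 7 genes of the spindle checkpoint and the anaphase-promoting complex none passed, and 6 of 7 were negative, with a median of -0.14. UBE2C, the E2 enzyme of that complex, came closest at -0.15 (limma adjusted p = 0.0624).

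Of 6 centromere, kinetochore and passenger-complex genes, NDC80 and the kinetochore motor CENPE were lower, with a group median of -0.18. Of 12 motors, microtubule-binding proteins and cytokinesis genes, 4 were lower (KIF20A, NUSAP1, TPX2 and DLGAP5), and all 12 were negative. TPX2, which activates Aurora A on the spindle, differed by -0.18 (limma adjusted p = 0.0413). TOP2A stood with MKI67, the Ki-67 proliferation antigen, in the chromosome structure group. The brightest MKI67 probe set differed by -0.13 and did not pass (limma adjusted p = 0.118).

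**Figure D1:**
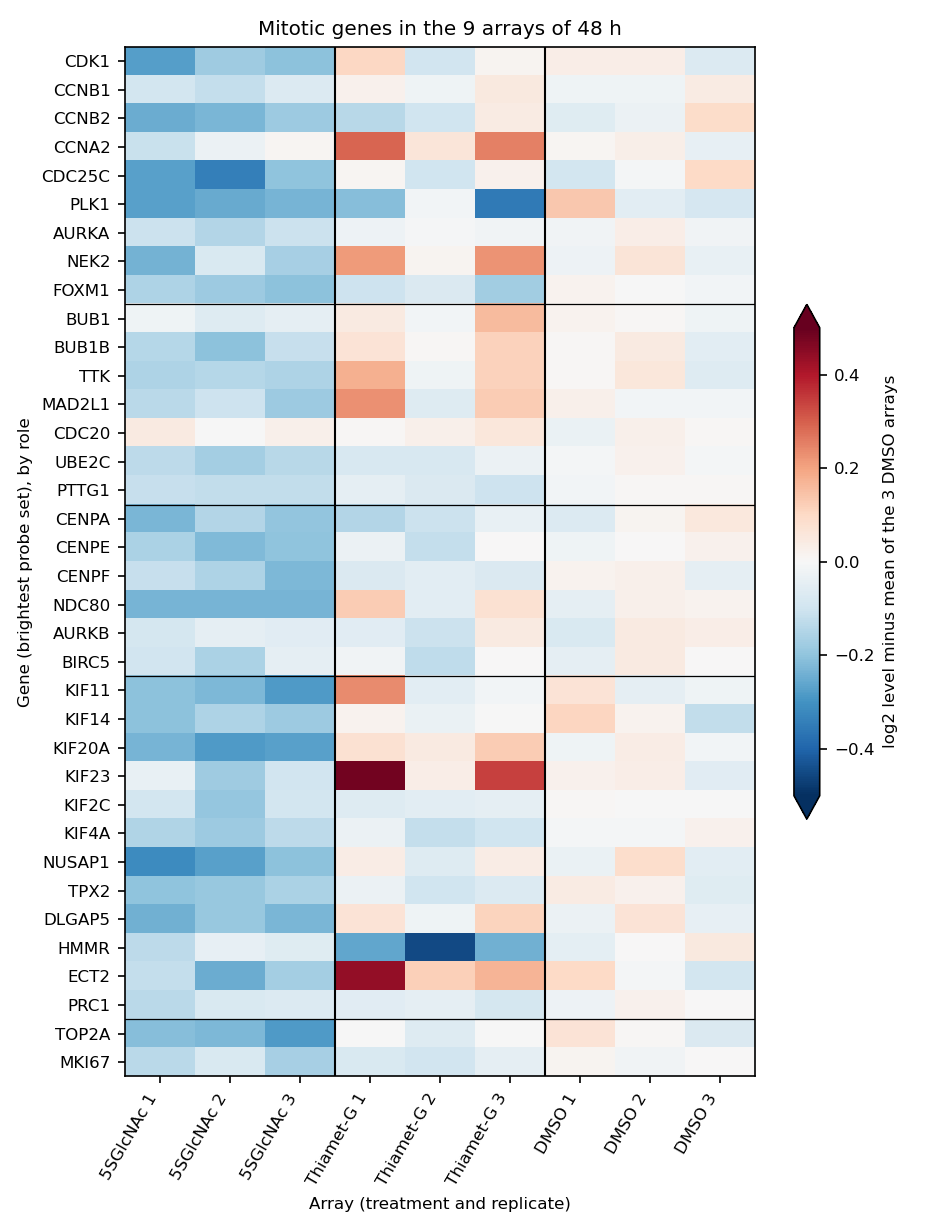
Log2 level of each of the 36 genes (rows, grouped by role) on each of the 9 arrays of 48 h (columns), minus the mean of the 3 DMSO arrays, with blue for lower and red for higher. The 3 arrays of 5SGlcNAc are blue in nearly every row, with array medians of -0.15, -0.17 and -0.17, while the Thiamet-G columns hold both colours.

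The change was shared by the arrays. Taken against the mean of the DMSO arrays, the median over the 36 genes was -0.15, -0.17 and -0.17 on the 5SGlcNAc arrays. Over all genes it was 0.0067, 0.0033 and 0.0033 on these arrays. The DMSO arrays themselves, at -0.01, 0.02 and -0.01, lie near 0 by construction and show only their spread. Of the 36, 35, 36 and 34 were below the DMSO mean on the 3 arrays of 5SGlcNAc. For 29 of the 36 genes the arrays of both groups did not overlap, with 5SGlcNAc lower, against 18.5% of all genes. The 7 that overlapped or went the other way were CCNA2, BUB1, CDC20, AURKB, BIRC5, KIF23 and HMMR.

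The count of passing genes depended on the fit more than the direction did. It was 22 when dim probe sets were left out before adjustment and 22 with a trended, robust variance, but 2 after median centring. It was 1 without DMSO replicate 2, 5SGlcNAc replicate 1 or 5SGlcNAc replicate 2, 2 without DMSO replicate 1, 3 without 5SGlcNAc replicate 3 and 5 without DMSO replicate 3. The median stayed between -0.18 and -0.15 in these 6 fits. The share of all genes that passed was not counted in the alternative fits. Their counts therefore do not compare members with other genes.

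The same genes could be read on several probe sets for 13 members. For 10 of the 13, all probe sets of a gene had the same sign with 5SGlcNAc, with a median spread of 0.10 between the lowest and the highest. NUSAP1 passed on both of its probe sets. TOP2A passed on 1 of 2, the brightest at -0.24, while its other set gave -0.14. MKI67 passed on 2 of 4, at -0.32 and -0.20 (limma adjusted p = 0.00492 and 0.0228), while its 2 brighter sets gave -0.13 and -0.14. CDC25C was negative on its 2 brighter sets and 0.02 on its dimmest set, which averaged 6.36 with 5SGlcNAc and 6.34 with DMSO. BUB1 ranged from -0.17 to 0.21 over its 5 sets and HMMR from -0.08 to 0.02 over its 2, and none of these passed. The highest BUB1 set was dim, at 6.54, 6.74 and 6.49 with 5SGlcNAc, against 6.48, 6.37 and 6.30 with DMSO. In all, 12 of 59 member probe sets were lower, against 4.96% of all probe sets.

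**Figure D2:**
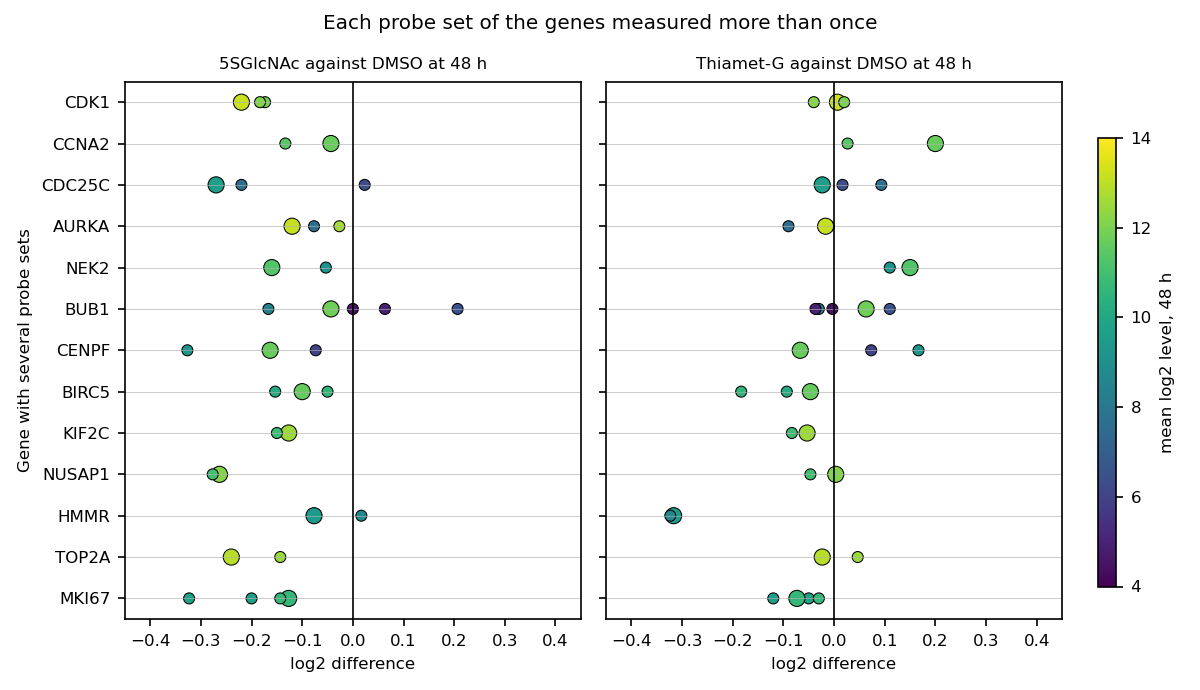
Log2 difference from DMSO at 48 h for every probe set of the 13 genes with more than 1, for 5SGlcNAc (left) and Thiamet-G (right), coloured by mean level, with the brightest set of each gene drawn larger. MKI67 points spread between -0.32 and -0.13 with 5SGlcNAc, and both HMMR sets lie at -0.32 with Thiamet-G.

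With Thiamet-G the 36 genes did not share a direction at 48 h. HMMR alone passed, and it was lower, against 1.98% of all genes lower and 0.251% higher. In all 16 genes were positive and 20 negative, with a median of -0.02 against -0.01 over all genes, of which 53.8% were negative. The arrays did not overlap for 3 members that were higher and 9 that were lower, against 6.37% and 15.1% of all genes. The DMSO arrays are the same as in the comparison above, so the pair of results is not independent.

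HMMR encodes a receptor for hyaluronan that also sits on spindle microtubules. It read 9.33, 9.14 and 9.35 with Thiamet-G, against 9.54, 9.59 and 9.64 with DMSO. All 3 inhibitor arrays were lower, with a difference of -0.32 ± 0.06 (SE, limma adjusted p = 0.0436), and its dimmer probe set also gave -0.32 (limma adjusted p = 0.161). With 5SGlcNAc HMMR read 9.46, 9.55 and 9.53 and differed from DMSO by -0.08 (limma adjusted p = 0.512). The HMMR call held without Thiamet-G replicate 2, its lowest array (limma adjusted p = 0.0456), and was lost without any 1 of the other 5 arrays (limma adjusted p = 0.0737 to 0.151), with differences of -0.36 to -0.25 in all 6 fits.

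Other members had positive differences with Thiamet-G that did not pass the test. CCNA2, the cyclin of S phase and G2, read 11.91, 11.68 and 11.87 with Thiamet-G, against 11.63, 11.65 and 11.58 with DMSO (0.20 ± 0.07, SE, limma adjusted p = 0.17). KIF23, a kinesin of the cytokinetic midbody, read 10.88, 10.43 and 10.74, against 10.42, 10.43 and 10.34 with DMSO (0.29 ± 0.10, SE, limma adjusted p = 0.195). ECT2, the exchange factor that activates RhoA at the cleavage furrow, read 12.17, 11.85 and 11.90, against 11.83, 11.72 and 11.64 with DMSO (0.24 ± 0.09, SE, limma adjusted p = 0.205). In these 3 genes Thiamet-G replicate 2 was the lowest of its group, and CCNA2 and ECT2 did not overlap with DMSO.

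FOXM1 had a negative difference that did not pass, at 11.02, 11.05 and 10.95 with Thiamet-G, against 11.14, 11.12 and 11.11 with DMSO (-0.12 ± 0.04, SE, limma adjusted p = 0.222). PLK1 read 9.15, 9.35 and 9.01 with Thiamet-G, against 9.50, 9.31 and 9.28 with DMSO, and the groups overlapped (-0.19 ± 0.09, SE, limma adjusted p = 0.304). Over all 36 genes the median against the DMSO mean was 0.0017, -0.05 and 0.0083 on the 3 Thiamet-G arrays, so replicate 2 stood below the other two. Without that array 2 genes were higher and the median was 0.0017.

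The most members passed when the inhibitors were set against each other. With 5SGlcNAc 14 of the 36 genes were lower than with Thiamet-G at 48 h and 1 was higher, against 5.74% of all genes lower and 5.26% higher. The median was -0.13, against 0.02 over all genes, and 35 of 36 genes were negative, against 42.1%. Of the 4862 genes at least as bright as the dimmest member, 8.49% were lower, 8.19% higher and 48.4% negative. This comparison used the same 5SGlcNAc and Thiamet-G arrays as above, set against each other.

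KIF20A gave the smallest p, at 11.64, 11.59 and 11.60 with 5SGlcNAc, against 11.95, 11.92 and 12.00 with Thiamet-G (-0.35 ± 0.04, SE, limma adjusted p = 0.00141). ECT2 had the largest difference, at 11.61, 11.48 and 11.56 with 5SGlcNAc, against 12.17, 11.85 and 11.90 with Thiamet-G (-0.42 ± 0.09, SE, limma adjusted p = 0.0158). Neither gene overlapped between the inhibitors. NEK2, a kinase that splits the centrosomes, read 11.04, 11.20 and 11.11 with 5SGlcNAc, against 11.49, 11.29 and 11.50 with Thiamet-G (-0.31 ± 0.07, SE, limma adjusted p = 0.0226). NDC80 (-0.28), DLGAP5 (-0.27) and NUSAP1 (-0.27) passed as well, with limma adjusted p-values of 0.0107, 0.0109 and 0.0175.

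Further calls between the inhibitors were TOP2A, the checkpoint kinases BUB1B and TTK, the motors KIF11 and KIF23, and CDC25C, CDK1 and CCNA2. HMMR was the gene that was higher with 5SGlcNAc than with Thiamet-G, by 0.24 ± 0.06 (SE, limma adjusted p = 0.045). A less bright probe set of CENPF differed by -0.49 (limma adjusted p = 0.0103), while its brightest differed by -0.10 (limma adjusted p = 0.235). The count of lower genes was 16 without Thiamet-G replicate 2 and 4 or 5 without any 1 of the other 5 arrays, and the HMMR call was lost without any 1 of the 6.

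**Figure D3:**
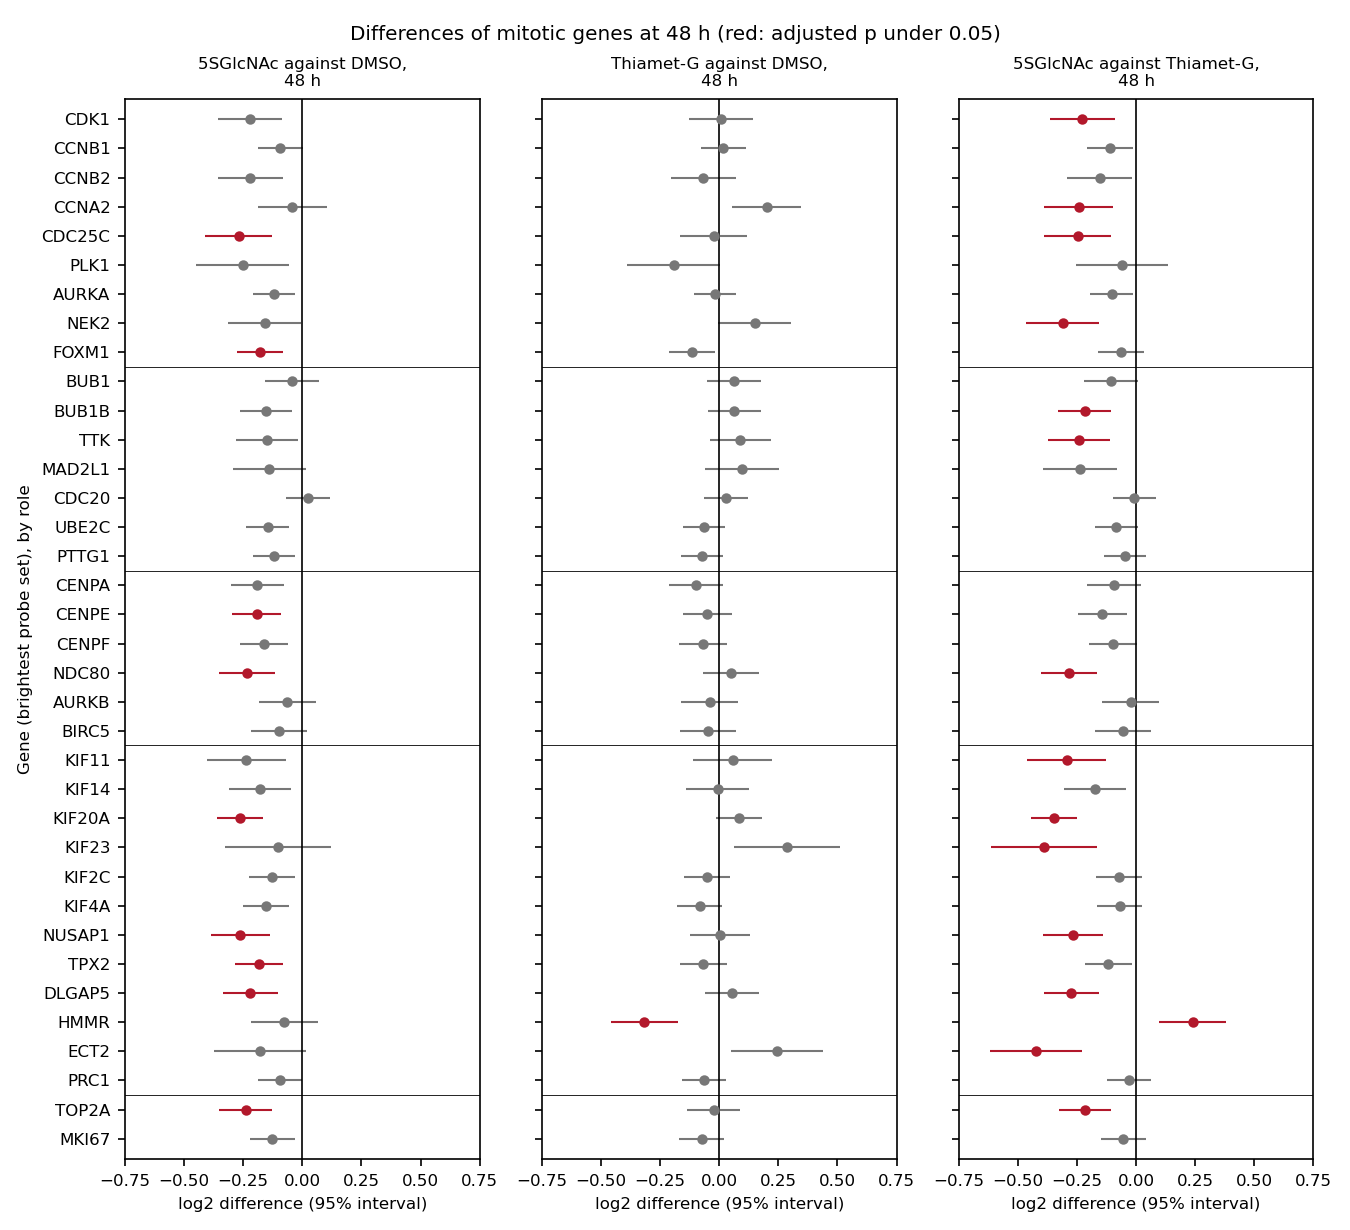
Log2 differences of the 36 genes at 48 h with 95% confidence intervals from limma, for 5SGlcNAc against DMSO, Thiamet-G against DMSO and 5SGlcNAc against Thiamet-G, with red for an adjusted p under 0.05. Points in the left panel lie left of 0 except CDC20 at 0.02, and the red points number 9, 1 and 15 from left to right.

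Genes outside the 36 that act in the same pathway were read from lists, which were written with earlier results of these data known. Of 56 measured genes in a list of other mitotic genes, none passed with Thiamet-G. With 5SGlcNAc against DMSO at 48 h 17 were lower and none higher, with a median of -0.13. Among all genes 6.1% were lower and 2.17% higher. The 17 lower genes included CDKN3, a phosphatase of CDKs (-0.35), CENPM, a centromere protein (-0.39), the nuclear lamina gene LMNB1 (-0.34) and the condensin subunit NCAPH (-0.26), with limma adjusted p-values of 0.00255, 0.00421, 0.00492 and 0.00997. None of the 10 measured core subunits of the anaphase-promoting complex passed, with a median of -0.04.

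Of 12 measured regulators of G2/M transcription, MYBL2 fell and NFYA rose with 5SGlcNAc, where 6.1% of all genes were lower and 2.17% higher. MYBL2 read 9.15, 9.04 and 9.04 with 5SGlcNAc, against 9.52, 9.47 and 9.44 with DMSO (-0.40 ± 0.07, SE, limma adjusted p = 0.0117). Its arrays did not overlap, and with Thiamet-G it differed from DMSO by -0.06 (limma adjusted p = 0.701). NFYC, another NF-Y subunit, differed by -0.19, TFDP2, a partner of E2F proteins, by -0.15 and E2F4, of the DREAM complex, by 0.13 with 5SGlcNAc. None of these passed on its brightest probe set (limma adjusted p = 0.0862, 0.175 and 0.238). A less bright NFYC set passed, at -0.21 (limma adjusted p = 0.016), and the other NFYC sets did not.

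NFYA, the subunit of NF-Y that contacts the CCAAT box, moved in opposite directions with the 2 inhibitors. It read 10.61, 10.64 and 10.68 with 5SGlcNAc and 10.08, 10.04 and 10.23 with Thiamet-G, against 10.38, 10.39 and 10.37 with DMSO. The 3 groups did not overlap: it was higher with 5SGlcNAc, by 0.26 (limma adjusted p = 0.0211), and lower with Thiamet-G, with a difference of -0.26 (limma adjusted p = 0.05, under the threshold before rounding). Each of its 4 probe sets was positive with 5SGlcNAc, from 0.13 to 0.26, and negative with Thiamet-G, from -0.35 to -0.09. Of the 4, 1 passed with 5SGlcNAc and 2 with Thiamet-G. The inhibitors differed from each other by 0.53 on the brightest set (limma adjusted p = 0.000576).

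CDKN1A, which encodes the CDK inhibitor p21, was lower with Thiamet-G. It read 11.33, 11.17 and 11.34 with 5SGlcNAc and 10.68, 10.78 and 10.74 with Thiamet-G, against 11.17, 11.03 and 11.05 with DMSO. With Thiamet-G it differed from DMSO by -0.35 ± 0.06 (SE, limma adjusted p = 0.0307), the 0.20 difference with 5SGlcNAc did not pass (limma adjusted p = 0.0989), and the inhibitors differed by 0.55 (limma adjusted p = 0.000924). Of the 12 measured CDK inhibitors and G1 cyclins in its list, 3 were lower and 1 higher with 5SGlcNAc against DMSO. Among all genes 6.1% were lower and 2.17% higher. The lower genes of the list were CCNG2 and CCNG1, which encode cyclins of the G type, and CDKN1C, which encodes the CDK inhibitor p57, by -0.61, -0.29 and -0.48 (limma adjusted p = 0.00285, 0.011 and 0.0124). The less bright CDKN1C sets gave -0.45, -0.35, -0.20 and 0.25. Those at -0.20 and 0.25 did not pass (limma adjusted p = 0.0974 and 0.0982). GADD45A, a stress gene linked to G2 arrest, was 0.35 higher (limma adjusted p = 0.00417).

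Some genes of the preceding phase were lower as well. Of 41 measured G1/S and DNA replication genes, 8 were lower, none was higher and 33 did not pass with 5SGlcNAc against DMSO, where 6.1% of all genes were lower. Their median was -0.10, with 34 negative and 6 positive. MCM7, a subunit of the replicative helicase, differed by -0.77 (limma adjusted p = 5.25e-05) and TK1, thymidine kinase, by -0.47 (limma adjusted p = 0.000466), both larger than any of the 36 mitotic genes in size. With Thiamet-G 1 of the 41, POLA2, was lower (-0.27, limma adjusted p = 0.0413), where 1.98% of all genes were lower.

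Between 2 and 24 h, where 1 array stood for each treatment and time, no member passed in any comparison of treatments averaged over the 5 times. With 5SGlcNAc against DMSO the median was -0.04 and 27 of 36 genes were negative, against 50.2% of all genes, and 1 of 36 had an unadjusted p under 0.05. With Thiamet-G against DMSO the median was 0.05 and 30 of 36 were positive and 6 negative, against 49.7% of all genes negative, with 0 of 36 at an unadjusted p under 0.05. No gene of the 11963 passed in either comparison in limma, where 466 and 1056 had an unadjusted p under 0.05. Between the inhibitors the median was -0.07, 33 of 36 were negative, against 49.3% of all genes, and 10 of 36 had an unadjusted p under 0.05, as did 1514 of the 11963 genes, while 0.0836% of all genes passed as lower and 0.0167% as higher.

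The comparison at single times has no test. At 24 h the median of the 36 genes on the 5SGlcNAc array differed from the DMSO array by -0.11, against -0.04 over all genes, with 27 of 36 below. The Thiamet-G array of 24 h was 0.03 above DMSO in the median, against -0.004 over all genes, with 14 of 36 below. At 2, 4, 6 and 8 h the 5SGlcNAc medians against DMSO were 0.004, -0.011, -0.06 and 0.013. Those over all genes were 0.008, -0.016, 0.035 and 0.01, and 16, 22, 26 and 15 of the 36 were below DMSO. At the same times the Thiamet-G medians against DMSO were 0.072, 0.038, -0.026 and 0.089. Over all genes they were 0.009, -0.019, 0.017 and 0.009, and 5, 14, 23 and 6 of the 36 were below DMSO.

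A direct test of the 5SGlcNAc effect at 48 h against its effect over 2 to 24 h gave no member that passed on its brightest probe set (limma; 9 of 36 members and 1522 of 11963 genes at an unadjusted p under 0.05). The median of the difference was -0.12 and 34 of 36 were negative, against 48.4% of all genes. The smallest adjusted p among them was 0.0806, for NDC80, and 0.861% of all genes passed as lower and 0.226% as higher. The dimmer NUSAP1 probe set was lower, as 1 of 59 member probe sets, against 0.662% of all probe sets. For Thiamet-G no gene passed in limma, while 731 of 11963 genes and 1 of 36 members had an unadjusted p under 0.05.

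Time was compared with 0 h over the 3 series together, the vehicle included, and few members passed. No member passed at 2, 4 or 6 h against 0 h (limma; 0, 3 and 7 of 36 members, and 833, 1911 and 2051 of 11963 genes, at an unadjusted p under 0.05), where 0.234%, 1.55% and 1.66% of all genes were lower and 0.192%, 1.03% and 1.72% higher. At 8 h 3 of 36 were higher, against 3.12% of all genes higher and 1.96% lower. At 24 h 5 of 36 were higher, against 4.07% higher and 4.39% lower. Of the 5298 genes at least as bright as the dimmest member, 5.15% were higher at 8 h and 6.44% at 24 h. No member was lower at any of the 5 times at an adjusted p under 0.05, though under other processing 1 was lower at 4 h, 1 to 3 at 6 h and 1 at 8 h. The series serve as replicates of a time here, and all 5 comparisons share the 3 arrays of 0 h, which differed by 0.0862 in the median member and by up to 0.271.

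At 8 h the genes that passed were NUSAP1, NDC80 and the spindle motor KIF11, by 0.33, 0.24 and 0.26 (limma adjusted p = 0.0122, 0.0303 and 0.0378). NUSAP1 read 11.79, 11.94 and 11.81 at 8 h with 5SGlcNAc, Thiamet-G and DMSO, against 11.58, 11.45 and 11.52 at 0 h. It was higher in each series. CDC20, the activator of the anaphase-promoting complex, went the other way, at 12.59, 12.70 and 12.47 at 8 h against 12.77, 12.84 and 12.84 at 0 h (-0.23, limma adjusted p = 0.0558).

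The early low point of CDC20 was 6 h, with a difference of -0.25 (limma adjusted p = 0.0508), and PLK1 (-0.32, adjusted p = 0.0718) and CCNB1 (-0.20, adjusted p = 0.0756) were at their lowest mean there too. All 3 were lower in each of the 3 series, and none passed. Without the DMSO series the 8 h count was 0, as it was without either other series.

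At 24 h the genes that passed were BUB1, MKI67, CENPE, DLGAP5 and KIF14. MKI67, on its brightest probe set in these arrays, which is another than at 48 h, read 10.40, 10.71 and 10.80 at 24 h with 5SGlcNAc, Thiamet-G and DMSO, against 10.18, 10.39 and 10.12 at 0 h. On this set it was higher in all series, by 0.41 ± 0.07 (SE, n = 3 series, limma adjusted p = 0.00435). MKI67 passed on 1 of its 4 probe sets, which gave 0.01 to 0.41. BUB1, a checkpoint kinase, read 11.47, 11.56 and 11.53 at 24 h, against 11.22, 11.22 and 11.18 at 0 h (0.31 ± 0.05, SE, limma adjusted p = 0.00272). On this brightest set all 3 series were higher, with the smallest step in the 5SGlcNAc series. BUB1 passed on 1 of its 5 probe sets, which gave -0.07 to 0.39. CDK1 passed on 2 of 3 and NUSAP1 on 1 of 2, but neither on its brightest set, so they are not counted.

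CENPE read 10.88, 11.11 and 11.15 at 24 h in the same order, against 10.78, 10.69 and 10.76 at 0 h (0.30 ± 0.07, SE, limma adjusted p = 0.0127). KIF14, a kinesin of cytokinesis, read 11.14, 11.45 and 11.34 at 24 h, against 11.03, 11.05 and 11.04 at 0 h (0.26 ± 0.06, SE, limma adjusted p = 0.021). In both genes the 5SGlcNAc series moved least. DLGAP5 read 11.43, 11.65 and 11.53 at 24 h, against 11.34, 11.25 and 11.26 at 0 h (0.25 ± 0.06, SE, limma adjusted p = 0.0171), again with the smallest step under 5SGlcNAc.

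CDC25C split the series on its brightest probe set. It read 8.48, 9.04 and 9.15 at 24 h with 5SGlcNAc, Thiamet-G and DMSO, against 8.58, 8.49 and 8.43 at 0 h. The Thiamet-G and DMSO series were higher and the 5SGlcNAc series was lower, and the mean of 0.39 did not pass (limma adjusted p = 0.0954). Its other probe sets did not split this way. A dimmer set was higher in all series, with the smallest step under 5SGlcNAc (6.82 to 6.84). On the dimmest set 5SGlcNAc (6.33 to 6.30) and DMSO (6.18 to 6.13) were both lower. Over all 36 genes, the median at 24 h against a series' own 0 h was 0.005 with 5SGlcNAc, 0.19 with Thiamet-G and 0.12 with DMSO, and 19, 34 and 33 genes were above their own 0 h. Over all genes these medians were -0.006, 0.024 and 0.011. The checkpoint gene MAD2L1 went the other way, at 0.29, 0.18 and -0.04 in the same order. So did HMMR on its brightest probe set, at 0.15, -0.15 and 0.05. With 1 array per series and time, the differences between series have no test. The count of 5 was 0 without the DMSO or the Thiamet-G series and 3 without the 5SGlcNAc series.

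**Figure D4:**
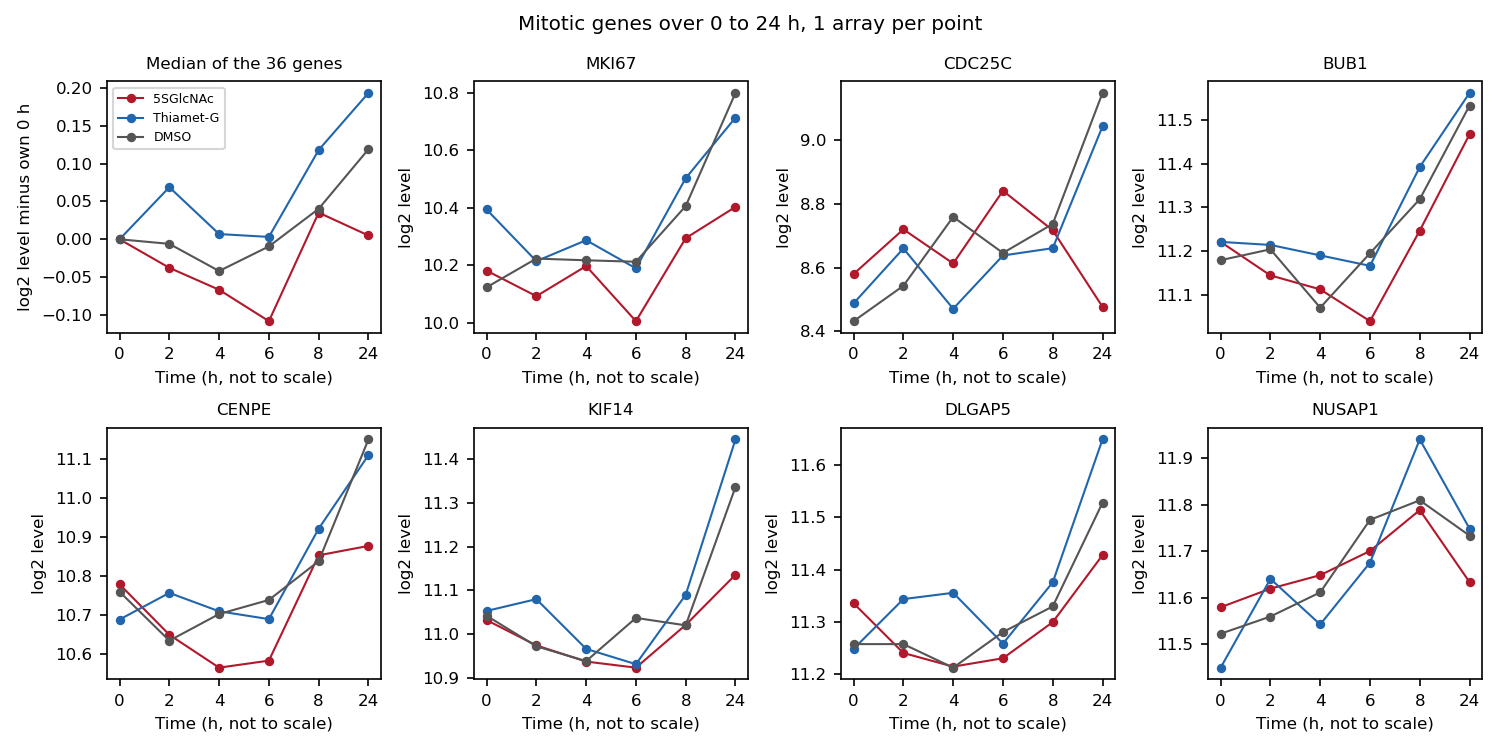
Log2 levels over 0, 2, 4, 6, 8 and 24 h for 7 members, and the median of the 36 genes against each series' own 0 h, with 1 array per point for 5SGlcNAc, Thiamet-G and DMSO. At 24 h the median lies at 0.005 in the 5SGlcNAc series, 0.19 in the Thiamet-G series and 0.12 in the DMSO series.

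Genes of the lists passed at several times. Of the 41 G1/S and DNA replication genes 2 were higher at 4 h, 5 at 6 h and 9 at 8 h against 0 h, with medians of 0.13, 0.12 and 0.14. Among all genes 1.03%, 1.72% and 3.12% were higher at these times. At 2 h none of the 41 passed, yet their median was already 0.13. There 40 of the 41 were positive, as were 5811 of all 11963 genes. CCNE2, a cyclin of S phase entry, was 0.64 higher at 8 h (limma adjusted p = 0.00428). At 24 h 3 of the 41 were higher, against 4.07% of all genes, and the median was -0.04. The 36 mitotic genes had medians of -7e-04, -0.02, -0.04, 0.06 and 0.13 at 2, 4, 6, 8 and 24 h. Of the 56 other mitotic genes, 8 were higher at 8 h and 8 at 24 h, against 3.12% and 4.07% of all genes. The condensin subunit NCAPG was among the 8 at both times (0.37 at 8 h and 0.46 at 24 h, limma adjusted p = 0.00488 and 0.000294). CDKN1A was 0.68 higher at 4 h than at 0 h over the 3 series (limma adjusted p = 0.00678). All results of 4 h against 0 h include the DMSO and Thiamet-G arrays with high ACTB 3′ minus 5′ signals (1.64 and 1.24). The effect of this on them was not tested.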

How the data were processed

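RNA of MDA-MB-231 cells was measured on 27 Affymetrix arrays. The deposited log2 values were made by the authors with RMA, per the submitters' processing notes, whose version is not given in the sources used here. Probe sets were named from the platform annotation, and 22215 that are not controls were used. limma 3.58.1 (R 4.3.3) was fitted over all of them with Benjamini-Hochberg adjustment and a threshold of 0.05: the 9 arrays of 48 h by treatment, the 15 of 2 to 24 h by treatment with time as a block, and the 18 of 0 to 24 h by time with the series as a block. A gene is given by its brightest probe set. The steps were tested on simulated data. The number of arrays limits the precision. Array values were printed for the 6 members with the smallest p in each 48 h comparison and the 6 with the largest change at 24 h, and genes of the other lists were named from the 4 with the smallest p in a comparison, not always all 4, with CDKN1A, MYBL2 and E2F4 named whatever their rank. The members and lists were chosen with earlier results of these data known. Alternatives were other scalings, filters, probe set rules and variance models, and leaving out arrays, times or series. Promoters came from RefSeq tables. Python 3.11.15 and matplotlib 3.10.9 were used.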

Additional observations from a re-analysis of the deposited data

Results flagged for a closer look

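The second, dimmer probe set of NUSAP1 was picked out because its 5SGlcNAc effect at 48 h differed from that over 2 to 24 h. The difference between the effects was -0.286 ± 0.064 (SE, limma adjusted p = 0.0372), with an effect of -0.28 at 48 h and 0.009 over 2 to 24 h. It read 10.78, 10.86 and 10.80 with 5SGlcNAc at 48 h, against 11.11, 11.06 and 11.10 with DMSO, without overlap. It was 1 of 59 member probe sets to pass, against 0.662% of all probe sets. The sets of arrays also differ in processing run, which cannot be told apart from time here.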

How the results depend on the processing

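Counts are of the 36 genes, and the share of all genes that passed was not counted in these fits. With quantile normalization none was lower with Thiamet-G, 3 were lower at 6 h, 1 at 8 h, and 1 in the difference of 5SGlcNAc effects. Median centring gave 2 lower with 5SGlcNAc (median -0.13), 0 lower with Thiamet-G (median 0.02), 0 higher between the inhibitors and 2 lower at 6 h. Without dim probe sets, 22 were lower with 5SGlcNAc, 1 higher and 3 lower at 6 h, 1 lower at 8 h and 2 in the effect difference. With 1 probe set a gene in the fit, 15 were lower with 5SGlcNAc and 1 each at 6 and 8 h. With the mean of probe sets, 0 were lower with Thiamet-G, the 4 h median was -0.0585, 1 was higher and 2 lower at 6 h, 1 lower at 8 h and 1 in the effect difference. Without _x_at and _s_at sets, 4 were lower with 5SGlcNAc, CDC25C turned to 0.0233, 0 were lower with Thiamet-G (median 0.0067), 0 higher and 8 lower between the inhibitors, and the 24 h median was 0.0871. A trended, robust variance gave 22 lower with 5SGlcNAc, 1 higher with Thiamet-G, 22 lower between the inhibitors, 1 lower at 4 h, 1 higher and 3 lower at 6 h, 5 higher and 1 lower at 8 h, 9 higher at 24 h and 4 lower in the effect difference. With only the arrays of 2 groups, 0 were lower with Thiamet-G, and 0 higher and 6 lower between the inhibitors. The replicate numbers did not pair the samples (9 correlations of -0.285 to 0.163, with 1 over 0.1). Pairs of arrays with different numbers gave 18 correlations of -0.21 to 0.212, with 5 over 0.1, and another pairing was not tested. The replicate block gave 4 lower with 5SGlcNAc, 0 with Thiamet-G, and 0 higher and 7 lower between the inhibitors. Over 2 to 8 h the 5SGlcNAc median was -0.0092. Leaving out an array gave 1 to 5 lower with 5SGlcNAc (median -0.1767 to -0.1483), 0 to 1 lower and 0 to 2 higher with Thiamet-G (median -0.0325 to 0.0017), and 4 to 16 lower and 0 to 0 higher between the inhibitors (median -0.1575 to -0.1183). Leaving out a time gave 5SGlcNAc medians of -0.0492 to -0.0092. Leaving out a series gave 0 to 0 higher at 8 h and 0 to 3 at 24 h, with medians of -0.052 to -0.0059 at 4 h and 0.0852 to 0.163 at 24 h. A fit left with fewer samples has less power by construction, and the other causes were not tested.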
